A study of Mus musculus and Homo sapiens with 107 samples.

Results

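The 10 collagen genes described here are COL1A1 (ENSG00000108821), COL4A1 (ENSG00000187498), COL4A2 (ENSG00000134871), COL5A1 (ENSG00000130635), COL5A2 (ENSG00000204262), COL6A1 (ENSG00000142156), COL6A2 (ENSG00000142173), COL6A3 (ENSG00000163359), COL7A1 (ENSG00000114270) and COL12A1 (ENSG00000111799). They were taken by identifier, as members of 1 gene family, and were chosen with earlier results of these data known. All 10 have a row in each of the 2 deposited count tables, which together list 25530 identifiers. They were followed in A549 and H1299, which are established lines grown from human non-small-cell lung tumours and whose genotype the labels give as wild type. Cells of each line received either BRM014 at 5 µM or the solvent DMSO for 12 h, with 3 RNA-seq libraries for each line and treatment. BRM014 blocks the ATPase activity of BRM and BRG1, either of which can drive a SWI/SNF chromatin remodelling complex. As background, both lines are widely described as lacking BRG1 protein, which was not checked here. The titles give DMSO at 0.05% and the treatment field gives 0.5%, and the values do not settle which is right. The RNA came from whole cultures of a single line, so fewer cells expressing a gene and less of its RNA per cell cannot be told apart.

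Collagens are matrix proteins whose chains wind into trimers and are secreted. Fibril-forming collagens (types I and V) build the fibres of connective tissue, type IV chains build the sheet-like network of basement membranes, type VI chains form beaded filaments at the cell surface, type VII forms the fibrils that anchor epithelium to the stroma beneath, and type XII decorates the surface of fibrils. In lung, basement membrane collagen is made by epithelium as well as endothelium and fibroblasts, while interstitial fibrillar collagen is mostly a product of fibroblasts.

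The A549 libraries held 40684400 to 50177700 counts and the H1299 libraries 28412100 to 41780000. Levels are given as CPM, in which each gene's count is set against the size of its library, corrected within each line by trimmed means (TMM). CPM is not corrected for gene length, so the values of different genes are not compared with each other. For A549, the same header stands over 2 BRM014 columns; they are called libraries a and b here, in column order, and have no replicate number. Among A549 genes at 5 CPM or more, the deviations of DMSO replicate 1 and BRM014 library a from their group means correlated across genes (Pearson r = 0.681; the other pairs of a DMSO and a BRM014 library ranged from -0.618 to 0.475). These were also the highest libraries of their groups for 4 of the collagen genes, COL1A1, COL4A2, COL5A1 and COL7A1. The share of all genes for which this held was not computed, so the count is not read as a result.

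In A549, BRM014 lowered the RNA of most of these collagen genes. COL5A1 fell 3.55-fold, the basement membrane genes COL4A1 and COL4A2 fell 2.11-fold and 1.64-fold, and the anchoring-fibril gene COL7A1 fell 1.48-fold. COL12A1 and COL5A2 went the other way, with rises of 1.54-fold and 1.21-fold. In all, 8 of the 10 genes fell and 2 rose at an adjusted p below 0.05 in edgeR's quasi-likelihood test. Of all 15188 genes tested in this line 37% were called, 19.4% lower and 17.7% higher. The median log2 fold change of the 10 genes was -0.49, against 0.02 over all genes tested. Since the genes were chosen with earlier results of these data known, these counts and this median do not describe collagen genes at large.

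**Figure D1:**
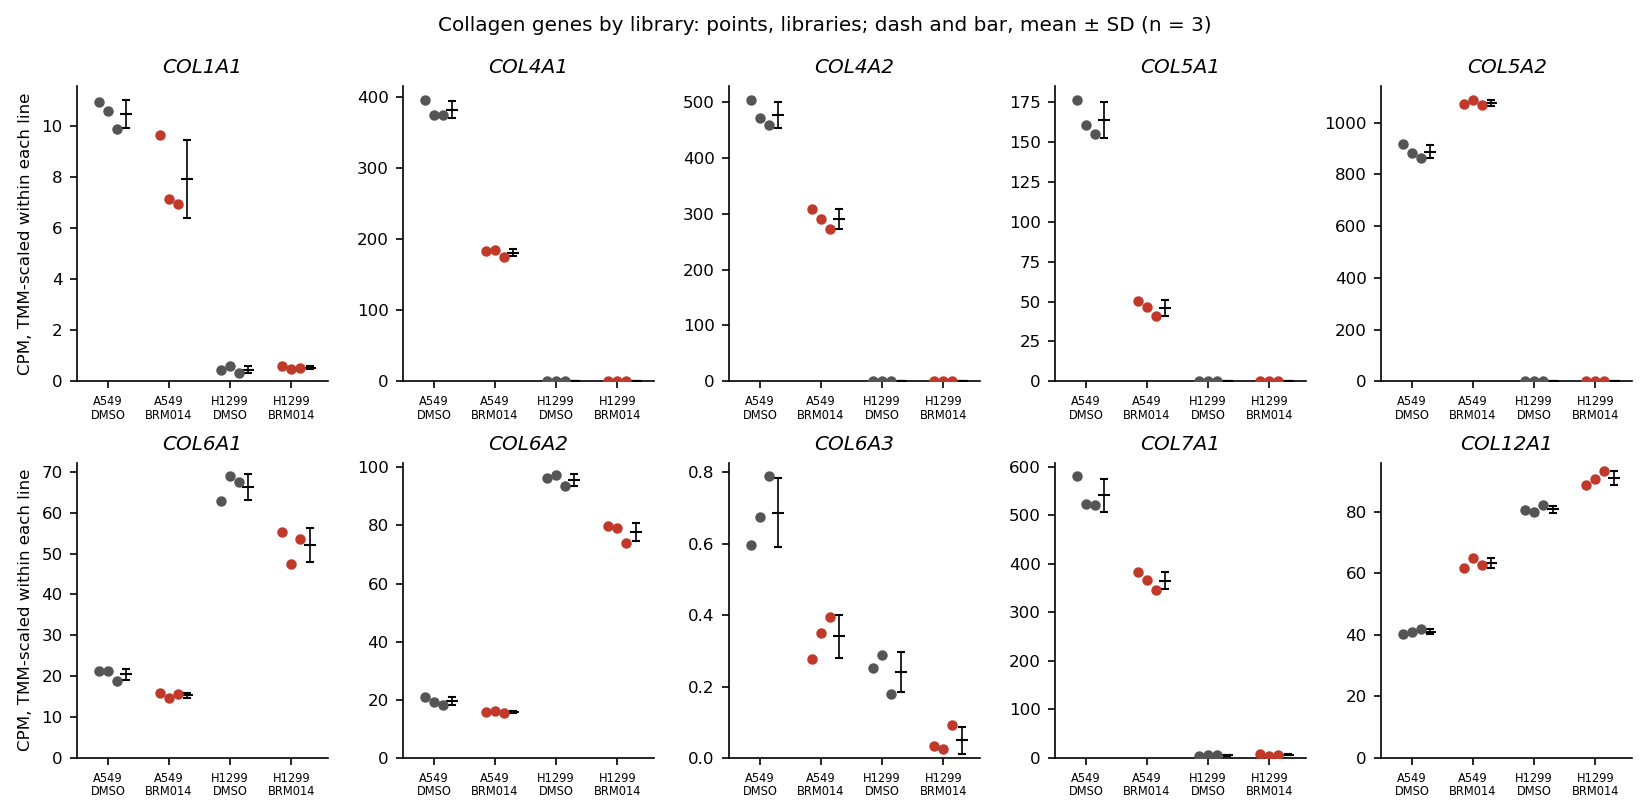
Level of each collagen gene in every library, in CPM (vertical axis, from 0, scaled within each line), for A549 and H1299 with DMSO (grey) or BRM014 (red); points are libraries in the order replicate 1, 2, 3 (a, b, 3 for A549 with BRM014), and dashes with bars are the mean ± SD of 3. For COL5A1 the A549 libraries with BRM014 sit between 41.0 and 50.6 CPM, all below the DMSO libraries, and H1299 lies near 0 on the same axis.

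COL5A1 encodes a chain of type V collagen, a minor component that helps start fibrils and sets their width. Its level in the A549 DMSO libraries was 176, 160.3 and 155 CPM, and in the BRM014 libraries it was 50.6, 46.6 and 41.0 CPM. Every treated library was thus well below every control, from 164 ± 11.1 to 46.0 ± 4.81 CPM (SD, n = 3). The log2 fold change was -1.83 (standard error 0.07, adjusted p = 4.37e-09 in edgeR), and 217 of the genes tested, 1.43%, had a lower value.

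COL5A2 encodes the chain that joins COL5A1 in the common type V trimer. The DMSO libraries of A549 held 916, 883 and 864 CPM and the BRM014 libraries 1071, 1087 and 1066 CPM. The treated libraries were all higher and lay close together, with a coefficient of variation of 1.01%, where the median over all genes tested was 5.78% in that group. That median includes genes with few counts, which vary more by counting alone, whereas COL5A2 had 45923 to 49769 counts in each of these libraries. The log2 fold change was 0.28 (standard error 0.03, adjusted p = 1.52e-05 in edgeR).

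COL1A1 encodes the main chain of type I collagen, the bulk collagen of connective tissue. It stood at 10.97, 10.6 and 9.89 CPM in the A549 DMSO libraries and at 9.68, 7.14 and 6.94 CPM with BRM014. Library a lay just below the lowest control and apart from the other treated libraries, and the groups did not overlap. The log2 fold change was -0.41 (standard error 0.12, adjusted p = 0.0164 in edgeR). This call rests on individual libraries: without library b the adjusted p was 0.0841 (log2 fold change -0.33), and without BRM014 replicate 3 it was 0.0514 (-0.32). With replicate 3 as the lone treated library it was 0.000647 (-0.62), a setting chosen after seeing the data in which that library is assumed to vary like the controls.

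COL4A1 and COL4A2 encode the chains of the most widespread type IV collagen and are neighbouring genes read in opposite directions from a shared promoter region. COL4A1 was at 396, 376 and 376 CPM in the A549 DMSO libraries and at 184, 185 and 176 CPM with BRM014. COL4A2 was at 503, 471 and 458 CPM, and at 308, 291 and 272 CPM with BRM014. For both genes each treated library lay far below the controls. Their log2 fold changes were -1.08 (standard error 0.04, adjusted p = 1.43e-09 in edgeR) for COL4A1 and -0.72 (standard error 0.05, adjusted p = 3.52e-07) for COL4A2.

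Type VI collagen is assembled mainly from the products of COL6A1, COL6A2 and COL6A3, the first 2 of which are neighbours in the genome. COL6A1 was at 21.2, 21.2 and 18.8 CPM in the A549 DMSO libraries and at 15.8, 14.6 and 15.7 CPM with BRM014, a log2 fold change of -0.41 (standard error 0.07, adjusted p = 0.000554 in edgeR). COL6A2 was at 21.0, 19.1 and 18.3 CPM, and at 15.7, 16.0 and 15.6 CPM with BRM014, a log2 fold change of -0.30 (standard error 0.07, adjusted p = 0.0036). These changes were small, yet the groups did not overlap for either gene. COL6A3 was detected at 27, 27 and 39 counts in the DMSO libraries and 12, 16 and 17 with BRM014, or 0.687 ± 0.0969 and 0.34 ± 0.0596 CPM (SD, n = 3). Its log2 fold change of -1.01 had the widest standard error of the 10 genes in A549, 0.25 (adjusted p = 0.00797). Without both unnumbered BRM014 libraries, a setting chosen after seeing the data that leaves 1 treated library, it was -0.82 with an adjusted p of 0.154.

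COL7A1 encodes the only chain of type VII collagen. Its level in A549 was 580.2, 523 and 521 CPM with DMSO and 383, 367 and 347 CPM with BRM014. The log2 fold change was -0.57 (standard error 0.05, adjusted p = 2.27e-06 in edgeR), with no overlap between the groups. COL12A1, the type XII gene, was at 40.2, 40.9 and 41.8 CPM with DMSO and at 61.8, 65.0 and 62.7 CPM with BRM014. It had the largest rise of the collagen genes in this line, a log2 fold change of 0.62 (standard error 0.05, adjusted p = 6.56e-07), and 818 of the genes tested, 5.39%, had a higher value.

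The treated and control CPM values did not overlap for any of the 10 genes in A549, with BRM014 lower for 8 and higher for 2. Over all genes tested in this line, 48.2% had no overlap, 24.8% with BRM014 lower and 23.4% with BRM014 higher. With library totals in place of TMM the median log2 fold change of all A549 genes went from 0.02 to 0.07, and the 10 collagen genes kept their directions.

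**Figure D2:**
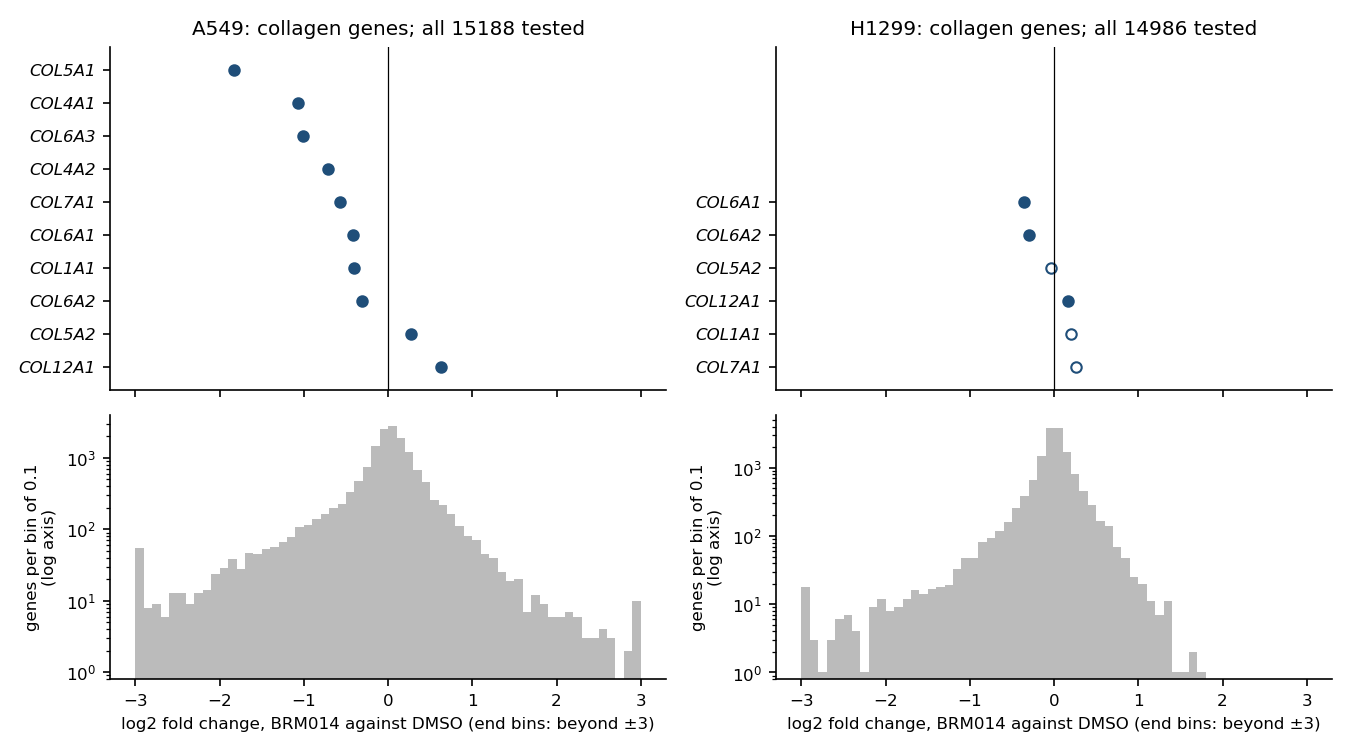
Log2 fold change of BRM014 against DMSO (horizontal axis) for the collagen genes (upper panels; filled points, adjusted p below 0.05; open points, above) and the number of genes in bins of 0.1 for all genes tested (lower panels, log axis). In A549 the genes run from -1.83 for COL5A1 to 0.62 for COL12A1, and in H1299 the 6 genes tested run from -0.35 to 0.26.

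Because partner chains are counted in the same library, their ratio does not depend on how libraries are scaled. The log2 ratio of counts, with 0.5 added to each, was compared between treatments by a two-sided exact permutation test; with 3 libraries against 3 the smallest p is 0.1, so no ratio could pass 0.05, and the smallest p adjusted over the 10 ratios computed was 0.143. Counts are not corrected for length, so only the change of a ratio is read. The ratio of COL5A1 to COL5A2 in A549 moved furthest: it was -2.44 ± 0.0551 with DMSO and -4.55 ± 0.148 with BRM014 (SD, n = 3), a 4.32-fold fall relative to the partner (exact p = 0.1). COL4A1 to COL4A2 went from -0.32 ± 0.0302 to -0.68 ± 0.0576, or 1.28-fold lower, with no overlap between the libraries (exact p = 0.1). COL6A1 to COL6A2 went from 0.07 ± 0.072 to -0.04 ± 0.0811 in A549 (exact p = 0.1), a gap of -0.11 that is close to the spread of the libraries. The COL6A3 ratios, which rest on 12 to 39 counts of COL6A3 per library, were lower by 0.58 against COL6A1 and by 0.69 against COL6A2 (exact p = 0.1 for each). In H1299, COL6A1 to COL6A2 was -0.53 ± 0.0769 with DMSO and -0.58 ± 0.143 with BRM014, with overlapping libraries (exact p = 0.7). The other 4 ratios in H1299 hold a chain with under 10 counts in a library and are not read.

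**Figure D3:**
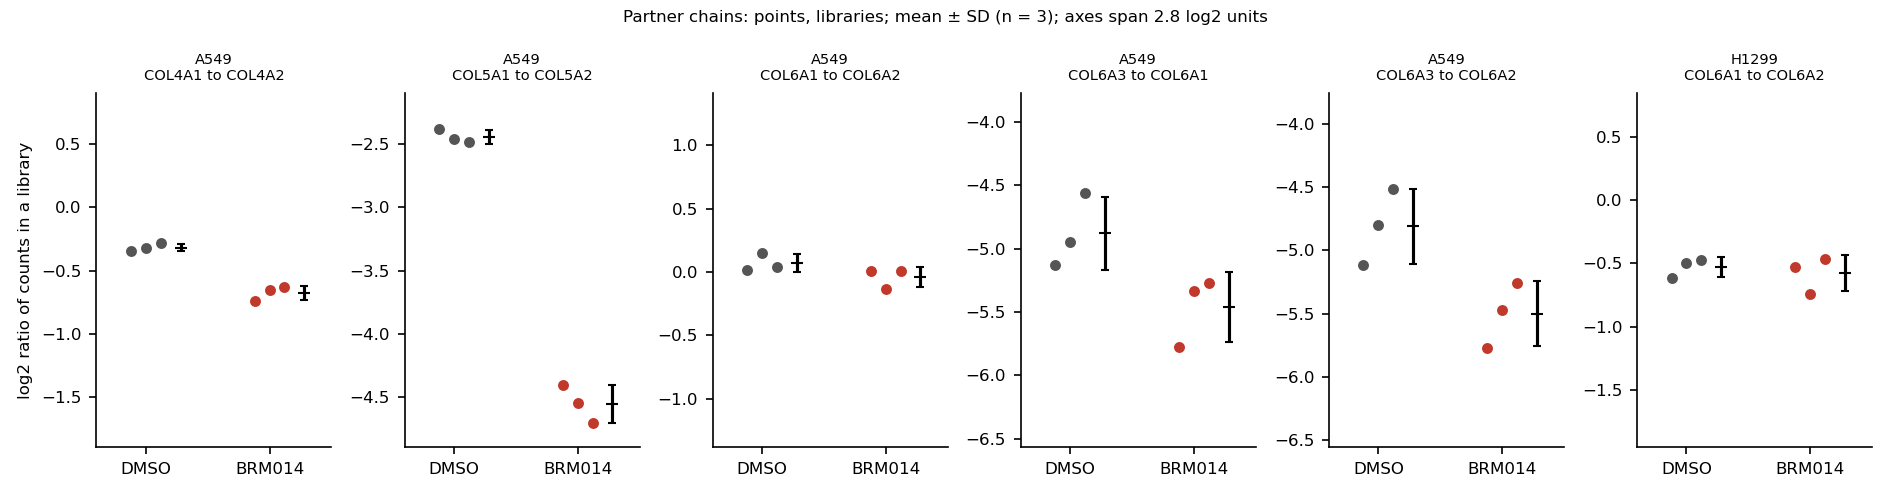
Log2 ratio of the counts of partner collagen chains within each library (vertical axis; each panel spans the same number of log2 units) with DMSO (grey) or BRM014 (red); points are libraries, dashes with bars the mean ± SD of 3. The COL5A1 to COL5A2 panel shows the widest separation, from -2.44 to -4.55, while the H1299 panel of COL6A1 to COL6A2 shows overlapping libraries.

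In H1299, 6 of the 10 genes were tested, and 3 of these 6 passed the threshold with BRM014. Its DMSO libraries held few reads of COL1A1, COL4A1, COL4A2, COL5A1 and COL6A3, while COL6A1, COL6A2 and COL12A1 were abundant enough for precise values. With BRM014, COL6A1 and COL6A2 fell 1.28-fold and 1.23-fold and COL12A1 rose 1.13-fold. COL1A1, COL5A2 and COL7A1 were tested and did not pass the threshold, and COL4A1, COL4A2, COL5A1 and COL6A3 had too few counts to be tested. Of the 14986 genes tested in H1299 22% were called, 12.7% lower and 9.29% higher. The median log2 fold change was 0.07 over the 6 collagen genes tested and 0.00 (0.0029) over all genes; since only members with enough counts entered, the former does not describe the family.

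COL6A1 in H1299 was at 62.8, 68.9 and 67.4 CPM with DMSO and at 55.2, 47.4 and 53.6 CPM with BRM014. COL6A2 was at 96.2, 97.2 and 93.5 CPM with DMSO and at 79.8, 79.1 and 74.0 CPM with BRM014. Each treated library lay below each control for both genes. The log2 fold changes were -0.35 (standard error 0.05, adjusted p = 4.58e-07 in edgeR) and -0.30 (standard error 0.04, adjusted p = 8.81e-08). COL12A1 was at 80.4, 79.8 and 82.0 CPM with DMSO and at 88.7, 90.5 and 93.3 CPM with BRM014, a log2 fold change of 0.17 (standard error 0.04, adjusted p = 0.000508). The spread of its control libraries was small, with a coefficient of variation of 1.43% against a median of 4.28% over all genes. That median includes genes with fewer counts, which vary more by counting alone.

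COL7A1 in H1299 was at 4.80, 6.16 and 5.10 CPM with DMSO and at 7.39, 4.96 and 6.999 CPM with BRM014. The second treated library lay among the controls and the other treated libraries above them. The log2 fold change was 0.26 (standard error 0.13, adjusted p = 0.164 in edgeR), so this value rests on single libraries. Without BRM014 replicate 2 it was 0.43 (adjusted p = 0.00501), and without BRM014 replicate 1 it was 0.15 (adjusted p = 0.517). COL5A2 was at 3.31, 2.85 and 3.18 CPM with DMSO and at 2.96, 2.93 and 3.25 CPM with BRM014 (log2 fold change -0.04, standard error 0.15, adjusted p = 0.9). COL1A1 had 9 to 19 counts per DMSO library and 17 to 20 with BRM014 (log2 fold change 0.20, standard error 0.36, adjusted p = 0.771). At this depth the COL1A1 counts allow a ratio of BRM014 to DMSO between 0.759 and 1.72 (95% exact interval for counting error only).

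The untested genes can be given only as counts. COL6A3 had 10, 9 and 5 counts in the H1299 DMSO libraries and 1, 1 and 3 with BRM014, and its scaled values did not overlap between the groups. The ratio of BRM014 to DMSO was 0.195 (95% exact counting interval 0.0582 to 0.522), in the same direction as in A549. COL6A3 entered the joined fit of both lines through its A549 counts. Its log2 fold change for H1299 in that fit was -2.27 (adjusted p = 0.0104 in edgeR), which is not taken as support for a fall in H1299. COL5A1 had 7, 16 and 0 counts with DMSO and 1, 2 and 5 with BRM014, so the control libraries differed widely among themselves. The ratio of its summed counts was 0.326 (0.126 to 0.755), but the libraries of the treatments overlapped, and with no filter on low counts its adjusted p in edgeR was 0.175. COL4A1 had 8 counts in the controls together and 10 in the treated libraries, a ratio of 1.17 (0.416 to 3.42). COL4A2 had 4 and 2, a ratio of 0.469 (0.0424 to 3.27), so changes of either type IV gene within these intervals were not detectable in H1299 at this depth. Of the 6 collagen genes tested in H1299, the treatments did not overlap for 3, COL6A1, COL6A2 and COL12A1. Over all genes tested there this held for 35.2%, 18.6% with BRM014 lower and 16.6% with BRM014 higher.

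**Figure D4:**
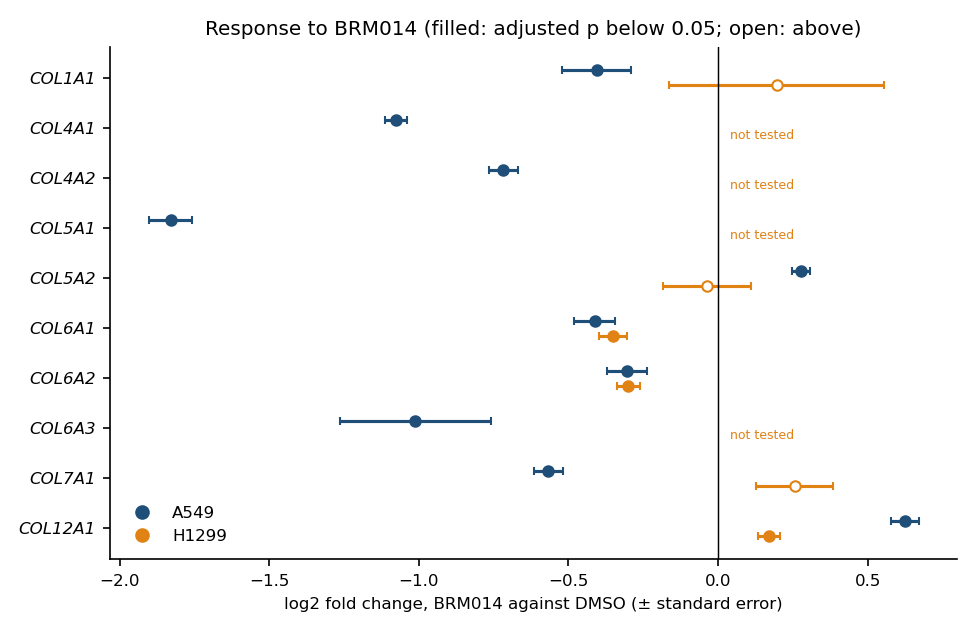
Log2 fold change of BRM014 against DMSO (horizontal axis, bars ± standard error) for each collagen gene in A549 (blue) and H1299 (orange), filled where the adjusted p is below 0.05; 4 genes were not tested in H1299. COL6A1 and COL6A2 lie close together in the lines, at -0.41 and -0.35 and at -0.30 in each, while COL7A1 lies at -0.57 in A549 and 0.26 in H1299.

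Whether a gene responded differently in the lines was tested directly, as the interaction of line and treatment in a joined fit of the 12 libraries. Of the 10 collagen genes 2 passed, COL7A1 and COL12A1; over the 16466 genes of this fit 19.5% did, 10.2% with the more positive response in H1299 and 9.25% with the more negative one. For COL7A1 the value for H1299 was above that for A549 by 0.84 on the log2 scale (adjusted p = 4.96e-05 in edgeR, standard error 0.13). For COL12A1 the difference was -0.43 (standard error 0.06, adjusted p = 1.07e-05): the gene rose in both lines, and more in A549. COL5A2 missed the threshold narrowly, with a difference of -0.29 (standard error 0.10, adjusted p = 0.051), and passed it in 7 of 18 alternative settings, over which the adjusted p ranged from 0.0225 to 0.257. Those were library totals, the 5 CPM filter, and leaving out A549 DMSO replicate 1, library a, A549 BRM014 replicate 3, H1299 DMSO replicate 2 or H1299 BRM014 replicate 3 (adjusted p from 0.0361 to 0.0456 for these 5).

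The type VI genes COL6A1 and COL6A2 fell in both lines, and no difference between the lines was shown. Their log2 differences, H1299 minus A549, were 0.09 (standard error 0.09, adjusted p = 0.561 in edgeR) and 0.03 (standard error 0.07, adjusted p = 0.855). For COL1A1 the difference was 0.62 (standard error 0.35, adjusted p = 0.241). The joined fit also tested COL4A1, COL4A2, COL5A1 and COL6A3, which enter it through their A549 counts. Their differences of 1.32, -0.23, 0.28 and -1.24 have standard errors of 0.62, 0.83, 1.06 and 0.70 and rest on the few H1299 counts given above. None of these 4 passed (adjusted p from 0.169 to 0.903), which shows neither a like nor a different response.

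Without the inhibitor the lines differed widely in most of these genes. In the joined fit all 10 differed at an adjusted p below 0.05 in edgeR, 7 higher in A549 and 3 higher in H1299, where 85.7% of all genes tested differed, 42.8% higher in A549 and 42.9% higher in H1299. As in the interaction, COL4A1, COL4A2, COL5A1 and COL6A3 entered through A549, where they have more counts than in H1299. Their part of this count was thus set by the filter and is not support for it. Line, growth medium and PCR cycles (9 for A549 and 8 for H1299) cannot be told apart in this comparison. When libraries were scaled by their totals alone, the median over all genes shifted from 0.02 to 0.24 (log2), and none of the 10 genes changed direction.

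The type IV and type V genes and COL7A1 showed the widest gaps, all with A549 higher. Over the DMSO libraries COL4A1 had 51572 counts in A549 and 8 in H1299, a ratio of scaled counts of 5526 (95% exact interval 2804 to 12800, for counting error only, as are the intervals that follow). COL4A2 had 64272 and 4 counts, a ratio of 13774 (5379 to 50553). COL5A1, with 22041 and 23 counts, was 821 (547 to 1296) times as high in A549. COL5A2, with 119520 and 309 counts, was 332 (297 to 372) times as high, and COL7A1, with 72970 and 525, was 119 (109 to 130.1) times as high. COL1A1 was 26.3 (19.6 to 36.1) times as high in A549 and COL6A3 3.32 (2.102 to 5.44) times. Leaving out single H1299 DMSO libraries moved some of these gaps by over 1.5 times, as log2 differences in edgeR, H1299 minus A549. Without replicate 2, COL5A1 went from -9.66 to -10.80 and COL4A2 from -13.63 to -14.90, and without replicate 1 COL4A1 went from -12.37 to -13.02. COL5A1 was at -10.53 with limma-voom. The A549 libraries lay far above those of H1299 for all of these genes except COL6A3, which was under 1 CPM in each library of both lines.

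The remaining genes leaned to H1299. In DMSO, COL6A2 was 4.21 (4.03 to 4.40) times, COL6A1 2.77 (2.65 to 2.90) times and COL12A1 1.68 (1.63 to 1.74) times as high there. Their log2 differences in edgeR, H1299 minus A549, were 2.07 (standard error 0.05, adjusted p = 1.19e-21), 1.47 (standard error 0.06, adjusted p = 3.39e-17) and 0.75 (standard error 0.04, adjusted p = 3.79e-14). With BRM014 the gap in COL12A1 was narrower, at 1.25 (1.21 to 1.29) times, and that in COL7A1 went to 66.7 (61.8 to 72.2) times higher in A549. The gaps in COL6A1 and COL6A2 with BRM014 were 2.93 (2.78 to 3.08) and 4.29 (4.09 to 4.50) times higher in H1299, close to those with DMSO.

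**Figure D5:**
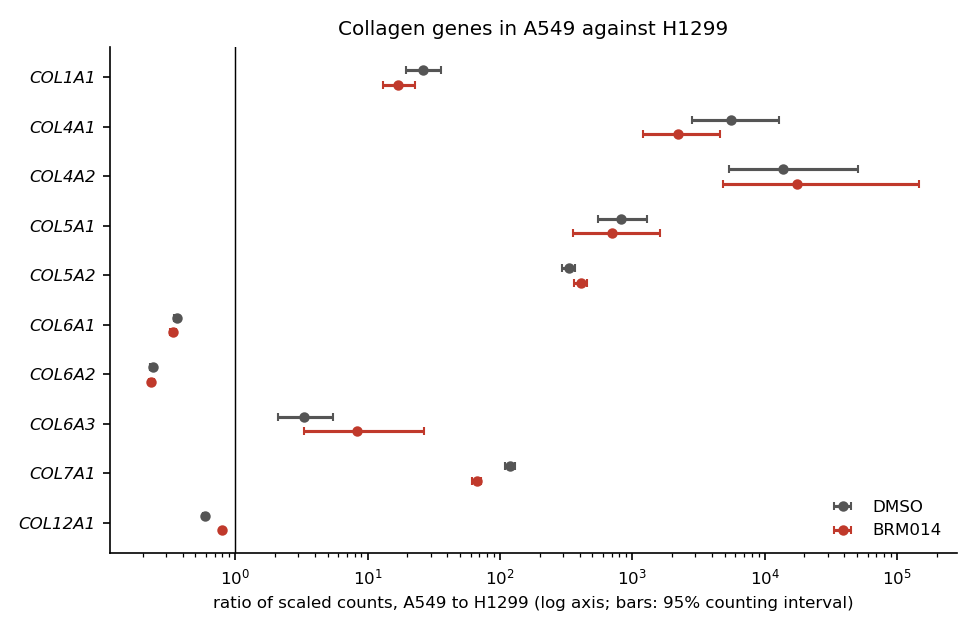
Ratio of scaled counts, A549 to H1299 (horizontal log axis, bars are 95% exact counting intervals), for each collagen gene over the 3 DMSO libraries (grey) or the 3 BRM014 libraries (red) of each line. COL6A1, COL6A2 and COL12A1 lie left of 1 and the other 7 genes right of it; the COL4A2 ratio, with 4 and 2 counts in H1299, has the widest interval.

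On the joined scale the 4 groups could be ordered for each gene. For COL1A1, COL4A1, COL4A2, COL5A1 and COL7A1 the A549 DMSO libraries were highest and the A549 BRM014 libraries next; the H1299 groups came last and overlapped each other. COL5A2 had the A549 BRM014 libraries on top, then A549 with DMSO, then both H1299 groups without separation. COL6A3 ran from A549 with DMSO through A549 with BRM014 and H1299 with DMSO to H1299 with BRM014, without overlap but at under 1 CPM throughout. COL6A1 and COL6A2 ran from H1299 with DMSO through H1299 with BRM014 and A549 with DMSO to A549 with BRM014, and neighbouring groups did not overlap. COL12A1 ran from H1299 with BRM014 through H1299 with DMSO and A549 with BRM014 to A549 with DMSO, again with no overlap between neighbours. The share of all genes with such orders was not computed, so they are not read as particular to the collagen genes.

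Likeness of pattern was measured as the root mean square difference of log2 CPM, centred on each gene's mean, over the 12 libraries; since the lines lie far apart, the measure mostly reflects the gap between them. COL4A1, COL4A2, COL5A1 and COL6A3 entered this set of genes through their A549 counts. In H1299 COL4A1 had 1 to 6 counts per library and COL4A2 0 to 3. The ranks of COL4A1, COL4A2 and COL5A1 thus largely reflect many counts in A549 and few in H1299. They are not read as likeness of partner chains. Among 16465 other genes, COL4A1 ranked 11 in closeness to COL4A2, at 0.752, and COL4A2 ranked 27 in closeness to COL4A1. COL6A1 ranked 358 for COL6A2, at 0.298, and COL6A2 ranked 658 for COL6A1. COL5A2 ranked 94 for COL5A1, at 1.17, and COL5A1 ranked 238 for COL5A2, behind COL7A1 at 213. Some collagen genes that are not partners were also close: COL5A1 ranked 63 for COL4A2 and 75 for COL4A1. COL6A3 was far from its partners, with COL6A1 at rank 13359. The genes closest to each member carry no symbol in the files and are not named. For the same reason the other collagen genes, the enzymes that modify and cross-link collagen, its receptors and the proteases that degrade it were not analysed here, and the lines were not checked against cell type markers.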

How the data were processed

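RNA-seq of A549 and H1299 cells was analysed: 12 of the 107 samples in the series, with the other 95 left out as belonging to other assays or cells. By the protocols in the labels, 500 ng of RNA went into each stranded, ribosome-depleted library, with spike-ins scaled to cell number. The authors deposited raw read counts per gene in a table for each line (24353 and 24019 identifiers, 22842 in both), with no normalization. The submitters' processing notes name build hg38 and the tools STAR 2.7.3a, Bowtie 1.2.2, cutadapt 1.14, DESeq2 and featureCounts. The strand setting is not given in the sources used here, so overlapping or antisense genes may share reads. No row is named for spike-ins, so every value is relative to the rest of its library. The labels do not say whether replicates were separate cultures, so the spread behind each p-value may be technical, and is only that of these libraries. Replicates of a group differed by more than sampling noise (chi-square per degree of freedom 2.20 to 11.1 over genes with at least 20 counts).

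The collagen genes were found by the identifiers and symbols given for them. The members and lists were chosen with earlier results of these data known. Name tables were given only for mouse and matched 0 identifiers, so 7 gene lists fixed by symbol, cell type markers and sequences were not used.

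Each line was fitted alone in R 4.3.3 with edgeR 4.0.16: filterByExpr defaults (count minimum 10, total 15), TMM factors, the two-sided quasi-likelihood test and Benjamini-Hochberg adjustment over all genes, with a threshold of 0.05. "Rose" and "fell" refer to that threshold. All 12 libraries were fitted jointly for the interaction and the line differences. Standard errors are the log2 fold change over the square root of F. All 10 genes were named in each comparison. Scripts were tested on simulated data. Alternatives were other scalings, DESeq2 1.42.0, limma-voom (limma 3.58.1), other filters, a replicate block and leaving out libraries.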

Additional observations from a re-analysis of the deposited data

Results flagged for a closer look

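COL7A1 was flagged because its response to BRM014 differed between the lines by the interaction test, the log2 fold change in H1299 less that in A549 being 0.84. Of the 10 collagen genes 2 passed this test. Of all 16466 genes in the fit 19.5% did, so passing was not particular to the collagen genes. COL7A1 fell in A549 (log2 fold change -0.57) and was at 0.26 in H1299, where it did not pass the threshold. The H1299 value rests on 525 and 664 counts. Over 18 alternatives the difference ranged from 0.74 to 1.02 and passed the threshold in each.

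COL12A1 was flagged by the same test, at -0.43. It rose in both lines, by 0.62 in A549 and by 0.17 in H1299 on the log2 scale, and over 18 alternatives the difference ranged from -0.47 to -0.40, past the threshold in each.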

How the results depend on the processing

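The number of collagen genes called was 9 or 10 over 14 alternatives in A549, 3 or 4 over 14 in H1299, 2 or 3 over 18 for the interaction and 9 or 10 over 13 between the lines in DMSO; with single libraries left out these were 9 to 10, 3 to 4, 2 to 3 and 10 to 10. Of 36 gene results followed, 28 kept direction and side of the threshold in every alternative run. In A549 the exceptions were COL1A1 without library b or BRM014 replicate 3 and COL6A3 without both unnumbered libraries. COL7A1 in H1299 passed only without BRM014 replicate 2, and the COL5A2 interaction passed in 7 of 18 alternatives; the cause was not tested. COL6A3 in H1299 was untested in the line alone. In the joined edgeR fit, which it entered through its A549 counts, its adjusted p for H1299 was 0.0104. Fitting H1299 without a filter on low counts gave 0.0452. The interaction values of 3 genes changed sign: COL4A2 was 0.24 with limma-voom and -0.68 to 1.04 without a library, COL5A1 was -0.56 to 1.42 without a library, and COL6A2 was -0.01 (-0.0115) with library totals and -0.0266 to 0.0758 without a library. COL5A2 in H1299 was -0.0964 to 0.0170 without a library. Without a library the H1299 ratio differences were -0.107 to 0.0303 for COL6A1 to COL6A2. For the ratios whose chains have too few counts to be read, they were -0.00 (-0.0049) to 1.23 for COL4A1 to COL4A2 and -1.99 to 0.53 for COL5A1 to COL5A2. COL6A3 is left out by the 5 CPM filter, and DESeq2 gave it no adjusted p for the interaction.

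Blocking on the replicate number, H1299 again gave 3 collagen genes, and no call changed (COL6A1 -0.35, COL6A2 -0.30 and COL12A1 0.17). Deviations of same-numbered H1299 libraries correlated at -0.024, -0.0282 and 0.00768 over all genes, and at -0.0868, -0.0241 and 0.0206 over genes at 5 CPM or more. The numbers thus give no sign of pairing in H1299. In A549 the same-numbered pair, DMSO replicate 3 and BRM014 replicate 3, was at 0.106 over all genes and 0.475 over genes at 5 CPM or more. BRM014 replicate 3 was at 0.0888 and 0.395 with DMSO replicate 2, and at -0.184 and -0.618 with DMSO replicate 1. The value of the same-numbered pair is thus not particular to the shared number. Whether it reflects pairing was not tested. No block was fitted in A549 because 2 of its libraries carry no number.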
